A study of Mus musculus with 12 samples.

Results

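The insulin-like growth factor (IGF) axis was followed through 10 genes in organoids from mouse mammary tumours: the IGF binding proteins Igfbp2, Igfbp3, Igfbp4, Igfbp5, Igfbp6 and Igfbp7, the ligand Igf1, the receptors Igf1r and Igf2r, and the adaptor Irs1. The 10 were taken by symbol from a count table of 25861 genes, and all 10 had enough counts to be among the 17025 genes tested. They were selected on the level of Igfbp5, the most counted gene of several libraries, so its level is a description and carries no test. The differences between knockdown and control libraries were not used in that rule.

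The study holds 12 RNA-seq libraries, 4 in each of 3 groups. Hairpin 2 (sh2Cldn7) and hairpin 1 (sh1Cldn7) are lentiviral short hairpin RNAs against Cldn7, a tight junction protein of epithelial cells, and the control (shControl) is a non-targeting hairpin whose genotype is labelled WT. All 3 groups came from MMTV-Neu tumours, where the Neu (Erbb2) oncogene is expressed in mammary epithelium from a viral promoter, and all received virus at a multiplicity of infection of 20, puromycin at 3 µg/ml for 3 days and then 5 days in collagen I. The medium of every group held an insulin, transferrin, selenium and ethanolamine supplement and 2.5 nM FGF2, so ligand for the insulin receptor was present throughout. The question set by the design was how loss of Cldn7 bears on invasion. The labels do not say whether replicates came from separate animals or cultures, or whether animals were pooled, so each p-value reflects the spread among these libraries alone, and that spread may be technical.

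IGF1 and IGF2 signal through the receptor tyrosine kinase encoded by Igf1r, which recruits Irs1 and through it phosphoinositide 3-kinase (PI3K) and Akt. The secreted IGF binding proteins hold the ligands outside the cell and can either withhold them from the receptor or extend their life. Igf2r takes up IGF2 for breakdown and also carries lysosomal enzymes that bear mannose 6-phosphate. In the rodent mammary gland Igfbp5 is known as a protein secreted by the epithelium when the gland regresses after weaning.

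Total counts were 34988358 to 76329473 per library, and libraries with replicate numbers 3 and 4 were sequenced more deeply than those with numbers 1 and 2. Cldn7 stood at 25.4 to 34.7 CPM (read counts scaled to a common library size) in hairpin 2, 29.0 to 44.2 CPM in hairpin 1 and 101 to 186 CPM in control libraries, with no overlap between either hairpin and control. Libraries with the same replicate number deviated together in all 3 groups, so each hairpin library was compared with the control library of its number. The 10 epithelial markers were all detected in every library, summing to 8332 to 9426 CPM in hairpin 2, 7911 to 10420 CPM in hairpin 1 and 7910 to 11070 CPM in control. In edgeR, Ehf and Epcam passed against control with hairpin 2, 1 higher and 1 lower, and none of the 10 passed with hairpin 1. Both genes also passed with the 2 hairpins together. Of all tested genes, 2.83% rose and 2.93% fell with hairpin 2, and 1.79% passed with both hairpins. Fibroblast markers went with the replicate number, summing to 3889 to 8496 CPM in the 3 libraries numbered 4 and 217.3 to 501.4 CPM in the 3 numbered 3.

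Igfbp5 had by far the most counts of the 10. Its CPM in replicates 1 to 4 was 11951.5, 14317, 18898.5 and 20592.5 in hairpin 2, 11675, 13846, 15205 and 19556.5 in hairpin 1, and 11001, 12606, 14790 and 22081 in control. The 3 groups overlapped, and within each group replicate 1 was lowest and replicate 4 highest. Igfbp5 took 1.05% to 2.35% of all counts in a library. It had the highest count of any gene in 7 of 12 libraries and the second highest in the other 5, behind COX1 in replicate 1 of each group and behind Trf, which encodes transferrin, in replicate 3 of hairpin 1 and of control. Igfbp5 supplied 97.6% to 99.1% of the counts of the 6 binding proteins, and 92.1% to 97.5% after division by exon length.

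Igfbp2 and Igfbp5 are neighbours in the genome. Igfbp2 occupies chr1:72824503-72852474 on the plus strand and Igfbp5 chr1:72857932-72874884 on the minus strand (GRCm38), tail to tail, 5.46 kb apart with no annotated gene between them. Igfbp3 (chr11:7206086-7213923, minus) and Igfbp4 (chr11:99041244-99054392, plus) share chromosome 11 at a distance. The 250 bases upstream of the first listed start of these 4 binding protein genes are shown because 3 of them rose with hairpin 2 and the fourth, Igfbp5, did not pass the test. Sequences are from RefSeq (GRCm38.p6), 5′ to 3′ on the gene's strand. Capitals mark the GC-rich promoter motif GGGCGG. They also mark the core promoter motif TATAAA. The windows are chr1:72824230-72824479 for Igfbp2, chr11:7213924-7214173 for Igfbp3, chr11:99040994-99041243 for Igfbp4 and chr1:72874866-72875115 for Igfbp5.
Igfbp2: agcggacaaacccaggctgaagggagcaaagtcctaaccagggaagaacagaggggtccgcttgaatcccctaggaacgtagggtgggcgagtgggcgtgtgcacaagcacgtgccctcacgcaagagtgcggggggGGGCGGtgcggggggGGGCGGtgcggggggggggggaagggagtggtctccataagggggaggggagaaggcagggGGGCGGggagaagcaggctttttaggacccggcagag
Igfbp3: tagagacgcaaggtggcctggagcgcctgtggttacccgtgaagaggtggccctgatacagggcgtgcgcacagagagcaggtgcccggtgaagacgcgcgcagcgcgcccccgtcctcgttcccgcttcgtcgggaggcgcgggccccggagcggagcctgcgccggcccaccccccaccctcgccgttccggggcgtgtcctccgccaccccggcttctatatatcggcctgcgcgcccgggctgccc
Igfbp4: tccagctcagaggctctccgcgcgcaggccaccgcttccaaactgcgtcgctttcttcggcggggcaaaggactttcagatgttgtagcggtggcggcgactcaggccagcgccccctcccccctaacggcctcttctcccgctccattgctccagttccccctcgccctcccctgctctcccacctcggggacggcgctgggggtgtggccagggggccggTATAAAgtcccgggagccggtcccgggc
Igfbp5: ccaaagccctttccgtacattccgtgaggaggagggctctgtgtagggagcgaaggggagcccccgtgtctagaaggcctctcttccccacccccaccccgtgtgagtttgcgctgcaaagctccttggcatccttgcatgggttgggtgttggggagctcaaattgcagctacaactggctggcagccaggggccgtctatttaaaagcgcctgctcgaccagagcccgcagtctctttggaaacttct
The Igfbp2 window held 3 exact matches to the first motif and the Igfbp4 window 1 exact match to the second. The Igfbp3 and Igfbp5 windows held an exact match to neither, and variants of the motifs were not searched. Searched on both strands, the first occurred in 32.7% and the second in 12.4% of 32851 RefSeq windows of the same length. TGANTCA (an AP-1 motif, in 6.75% of windows) and TGTTTAC (a forkhead motif, 3.17%) were in none of the 4 windows, and CANNTG (an E-box, 66.2%) was in all 4 and is left in lower case. A second listed start of Igfbp2 has its own window at chr1:72825137-72825386, which held 1 TGANTCA match and no GGGCGG. GC content was 67.2% for Igfbp2, 73.2% for Igfbp3, 69.2% for Igfbp4 and 58.8% for Igfbp5 in the windows shown.

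**Figure D1:**
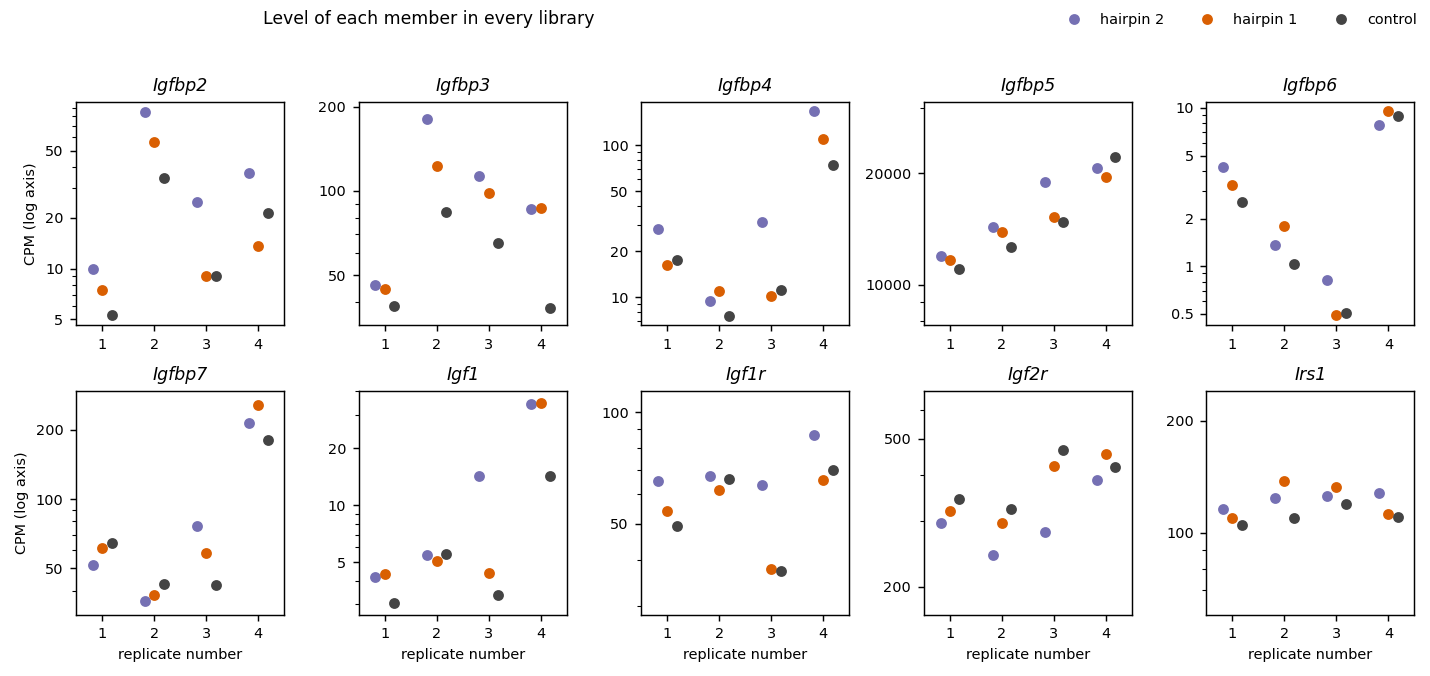
CPM (log axis) of the 10 members in every library, 1 point per library, coloured by group (hairpin 2, hairpin 1, control), at replicate numbers 1 to 4 on the horizontal axis. The spread of Igfbp4, Igfbp6 and Igfbp7 runs mostly between replicate numbers, while Igfbp3 lies above its own-numbered control in all 8 hairpin libraries.

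Igfbp5 did not differ detectably between groups. Its log2 difference from control was 0.14 for hairpin 2 (95% interval -0.06 to 0.33, edgeR adjusted p = 0.387) and 0.02 for hairpin 1 (-0.17 to 0.21, adjusted p = 0.960), 4 pairs each. Hairpin 2 minus hairpin 1 was 0.12 (-0.08 to 0.31, adjusted p = 0.489), with hairpin 2 higher in 4 of 4 pairs. Of the variance of Igfbp5 over the 12 libraries, 91.0% went with the replicate number, 3.46% with the group and 5.51% with neither.

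Igfbp2, a binding protein that holds both IGFs, rose with hairpin 2. Its CPM in replicates 1 to 4 was 9.91, 85.1, 24.9 and 36.8 in hairpin 2, 7.46, 56.0, 9.003 and 13.6 in hairpin 1, and 5.33, 34.3, 9.01 and 21.4 in control. Ranges overlapped because replicate 2 was highest in every group, yet hairpin 2 exceeded its own-numbered control in all 4 pairs. The difference of hairpin 2 from control was 1.11 on the log2 scale (SE 0.20, 2.16-fold, edgeR adjusted p = 0.0150). For hairpin 1 it was 0.13 (SE 0.21, adjusted p = 0.850), with replicates 1 and 2 above control, replicate 4 below it and replicate 3 level.

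Igfbp3, the main carrier of IGFs in blood and an epithelial binding protein, passed in the test of the 2 hairpins together against control. It had 46.1, 181, 113 and 86.3 CPM in hairpin 2, 44.7, 123, 98.6 and 86.6 CPM in hairpin 1, and 38.9, 84.0, 65.1 and 38.2 CPM in control. Each hairpin library exceeded the control library of its number, in 8 of 8 pairs that share 4 control libraries, although the ranges overlapped. Igfbp3 rose with hairpin 2 by 0.83 on the log2 scale (SE 0.15, 1.78-fold, edgeR adjusted p = 0.0138). With hairpin 1 the difference was 0.63 (SE 0.15) and missed the threshold of 0.05 (edgeR adjusted p = 0.0969). Both hairpins against control gave 0.73 (SE 0.13, adjusted p = 0.0262).

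Igfbp4, which is cut by the protease PAPP-A to release IGF, also rose with hairpin 2. It had 28.1, 9.46, 31.2 and 169 CPM in hairpin 2, 16.2, 11.003, 10.1 and 110 CPM in hairpin 1, and 17.6, 7.53, 11.1 and 73.7 CPM in control. Replicate 4 was several times above the others in every group, and fibroblast markers were highest in the same libraries. The difference of hairpin 2 from control was 0.98 (SE 0.22, 1.97-fold, higher in 4 of 4 pairs, edgeR adjusted p = 0.0328) and that of hairpin 1 was 0.24 (SE 0.23, adjusted p = 0.725).

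Igfbp6, which prefers IGF2, and Igfbp7, a related secreted protein of low IGF affinity, showed no detectable difference. Igfbp6 was 0.816 to 7.81 CPM in hairpin 2, 0.490 to 9.54 CPM in hairpin 1 and 0.507 to 8.91 CPM in control. Igfbp7 was 36.3 to 213 CPM in hairpin 2, 38.4 to 255 CPM in hairpin 1 and 42.6 to 180 CPM in control. Both were highest in replicate 4 of every group, and the replicate number carried 96.3% of the variance of Igfbp6 and 94.8% of that of Igfbp7. Against control, Igfbp6 differed by 0.38 (SE 0.22) with hairpin 2 and 0.29 (SE 0.22) with hairpin 1, and Igfbp7 by 0.14 and 0.18 (SE 0.16 each), on the log2 scale. Igfbp7 shares 7.03% of its exon bases with Polr2b, and whether counting used strand is not given in the sources used here.

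Igf1, the ligand, was the least abundant member per length and exceeded 10 CPM in 4 libraries. It had 4.19, 5.49, 14.4 and 34.2 CPM in hairpin 2, 4.34, 5.07, 4.41 and 34.8 CPM in hairpin 1, and 3.05, 5.54, 3.35 and 14.3 CPM in control. Replicate 4 was highest in each group, and replicate 3 of hairpin 2 was the one other library above 10 CPM. The differences from control, 1.02 (SE 0.34, edgeR adjusted p = 0.108) with hairpin 2 and 0.55 (SE 0.34, adjusted p = 0.552) with hairpin 1, did not pass in edgeR. With hairpin 2 Igf1 did pass in DESeq2 (0.99, adjusted p = 0.0168) and in edgeR without control replicate 2 (1.33, adjusted p = 0.0472). Igf2, the other ligand, was at 0.545 to 5.11 CPM in hairpin 2, 0.282 to 0.871 CPM in hairpin 1 and 0.309 to 4.10 CPM in control, and 64.5% of its exon bases are shared with other annotated genes.

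Igf2r fell with hairpin 2, and the call of Igf1r depended on the model. Igf2r had 296, 243, 281 and 387 CPM in hairpin 2, 320, 296, 422 and 455 CPM in hairpin 1, and 344, 324, 466 and 420 CPM in control. Hairpin 2 was below its own-numbered control in 4 of 4 pairs, with overlapping ranges. The difference was -0.37 (SE 0.09, 0.776-fold, edgeR adjusted p = 0.0421) for hairpin 2 and -0.07 (SE 0.09, adjusted p = 0.821) for hairpin 1.

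Igf1r had 65.1, 67.0, 63.6 and 86.7 CPM in hairpin 2, 54.2, 61.6, 37.7 and 65.6 CPM in hairpin 1, and 49.3, 65.8, 37.4 and 69.8 CPM in control. Hairpin 2 exceeded control in 4 of 4 pairs, by 0.38 (SE 0.10), which missed the threshold in edgeR (adjusted p = 0.0588), and hairpin 1 differed by -0.01 (SE 0.10). Igf1r did pass with hairpin 2 in DESeq2 (0.38, adjusted p = 0.0125), and in edgeR with no filter on low counts (0.40, adjusted p = 0.0386), without control replicate 2 (0.45, 0.0416) and without hairpin 2 replicate 2 (0.48, 0.0209). Between the hairpins it passed in edgeR without hairpin 2 replicate 2 (0.49, adjusted p = 0.0291). Insr, the insulin receptor, stood at 67.1 to 82.1 CPM in hairpin 2, 64.1 to 80.6 CPM in hairpin 1 and 63.0 to 92.6 CPM in control, and its difference for both hairpins was 0.02 (SE 0.06, adjusted p = 0.911).

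Irs1, the adaptor recruited by the receptor that Igf1r encodes, was the steadiest member, with its highest library 1.32 times its lowest. It had 116 to 128 CPM in hairpin 2, 109 to 138 CPM in hairpin 1 and 105 to 119 CPM in control. It was higher in 8 of 8 pairs, yet by 0.15 with hairpin 2 and 0.14 with hairpin 1 (SE 0.06 each), which did not pass (edgeR adjusted p = 0.177 and 0.373). Of its exon bases, 30.9% are overlapped by the opposite-strand gene Gm9747, so part of its count may belong there. Irs2, its homologue, was 21.0 to 28.8 CPM in hairpin 2, 19.4 to 28.2 CPM in hairpin 1 and 16.1 to 30.0 CPM in control, with a difference of 0.12 for both hairpins (SE 0.09, adjusted p = 0.564).

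Counted together, 3 of the 10 members rose and 1 fell with hairpin 2 against control, where 5.76% of all tested genes passed (2.83% higher and 2.93% lower). With hairpin 1 none of the 10 passed in edgeR, against 0.728% of all genes (0.382% higher and 0.347% lower). At an unadjusted p under 0.05 there were 2 members for hairpin 1, beside 12.8% of all genes, and DESeq2 called 1, Igfbp3, among 596 genes. With both hairpins against control 1 member passed, Igfbp3, against 1.79% of all genes (0.84% higher and 0.946% lower). The members' median log2 difference was 0.38 with hairpin 2 and 0.16 with hairpin 1, with 9 and 8 of 10 above 0. Over all genes the medians were 0.0044 and -0.0019, with 50.8% and 49.5% of genes above 0. The members were picked with results of these data known and the 2 comparisons share the control libraries, so these counts describe the members and are not a test of them.

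**Figure D2:**
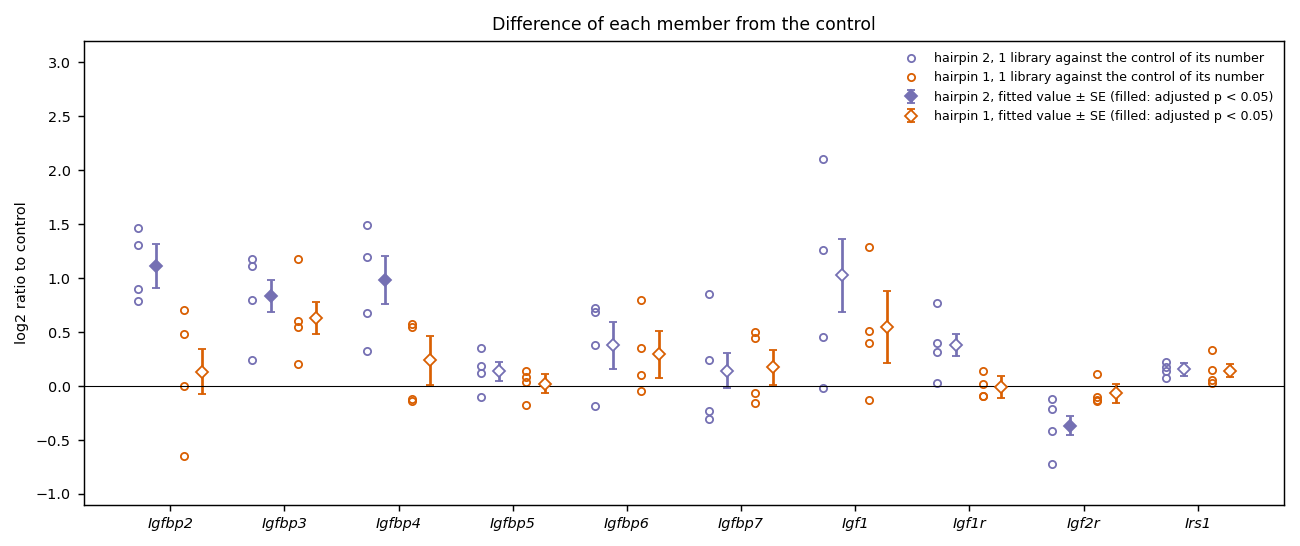
Log2 difference of each member from the control library of the same replicate number (open circles) and the fitted difference ± SE (diamonds, filled where the adjusted p was under 0.05), hairpin 2 beside hairpin 1. The hairpin 2 values of Igfbp2, Igfbp3 and Igfbp4 lie above 0 in all 4 pairs and those of Igf2r below 0.

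The calls differed in how far they rested on single libraries. The hairpin 2 call of Igfbp3 held without any 1 of the 12 libraries (highest edgeR adjusted p 0.0476). That of Igfbp2 was lost without control replicate 3 (adjusted p = 0.0587) or hairpin 2 replicate 4 (0.0514). That of Igfbp4 was lost without hairpin 2 replicates 1 (adjusted p = 0.0738), 3 (0.0553) or 4 (0.0964), hairpin 1 replicate 1 (0.0503), or control replicates 1 (0.0614), 3 (0.115) or 4 (0.0981). That of Igf2r was lost without any 1 of 11 libraries, at adjusted p 0.0563 to 0.135, and kept without control replicate 4 alone. When only the libraries of hairpin 2 and control were fitted, Igfbp2 passed (edgeR adjusted p = 0.0354), and Igfbp3 (0.83, 0.0699), Igfbp4 (0.95, 0.0783) and Igf2r (-0.37, 0.177) did not. With only those of hairpin 1 and control, Igfbp3 passed for hairpin 1 (0.65, adjusted p = 0.0425). The call of Igfbp3 for both hairpins was lost without hairpin 2 replicate 4 (0.0572), hairpin 1 replicates 1 (0.0582), 3 (0.0587) or 4 (0.0505), or control replicates 2 (0.0601), 3 (0.0937) or 4 (0.0884).

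The direction of these differences was the same within the shallower and the deeper libraries. With hairpin 2, replicates 1 and 2 alone gave log2 differences of 1.14 for Igfbp2 (edgeR adjusted p = 0.0125), 0.69 for Igfbp3 (0.168), 0.52 for Igfbp4 (0.388) and -0.32 for Igf2r (0.154). Replicates 3 and 4 alone gave 1.13 for Igfbp2 (edgeR adjusted p = 0.0472), 1.00 for Igfbp3 (0.0315), 1.38 for Igfbp4 (0.0415) and -0.40 for Igf2r (0.269). Without the 3 libraries numbered 4, where fibroblast markers were highest, hairpin 2 gave 1.26 for Igfbp2 (edgeR adjusted p = 0.0292), 0.73 for Igfbp3 (0.0632), 0.90 for Igfbp4 (0.157) and -0.44 for Igf2r (0.0644). For both hairpins, Igfbp3 gave 0.53 (0.282) in replicates 1 and 2, 0.95 (0.0727) in replicates 3 and 4, and 0.60 (0.137) without replicate 4.

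The 2 hairpins differed from each other in Igfbp2. Hairpin 2 minus hairpin 1 was 0.98 on the log2 scale (SE 0.20, 1.97-fold, edgeR adjusted p = 0.0305), higher in 4 of 4 pairs, while 3.44% of all genes passed in this comparison (1.57% higher and 1.87% lower). The other 9 members did not pass in edgeR, and DESeq2 also called Igfbp4 (adjusted p = 0.0159), Igf1r (0.0132) and Igf2r (0.0246). The edgeR values had intervals (95%) of 0.24 to 1.24 for Igfbp4, 0.17 to 0.62 for Igf1r, -0.50 to -0.10 for Igf2r and -0.12 to 0.53 for Igfbp3. Cldn7 itself differed by -0.23 between the hairpins (95% interval -0.41 to -0.05, edgeR adjusted p = 0.149). It was lower with hairpin 2 in 4 of 4 pairs. The Igfbp2 call was lost without hairpin 2 replicates 2 (edgeR adjusted p = 0.0575), 3 (0.0591) or 4 (0.0750), hairpin 1 replicates 3 (0.133) or 4 (0.0921), or control replicate 1 (0.0512). Within replicates 1 and 2 it was 0.52 (0.128), and within replicates 3 and 4 it was 1.45 (0.0643).

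Replicate number, with 4 levels, carried a larger share of each member's variance than the group, with 3 levels. For Irs1 the 2 shares were close, at 39.4% for the number and 33.7% for the group. The number carried 56.2% to 66.2% of the variance of Igf2r, Igf1r and Igfbp3, and 78.1% to 96.3% of that of the other 6, as a description. The highest library exceeded the lowest 22.4 times for Igfbp4, 19.5 times for Igfbp6 and 16.0 times for Igfbp2, but 2.01 times for Igfbp5 and 1.92 times for Igf2r. With the replicate number left out of the model, 0 of 10 members passed in edgeR in any comparison, 0 had an unadjusted p under 0.05, and 1 gene in each comparison (0.00587% of all) passed.

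**Figure D3:**
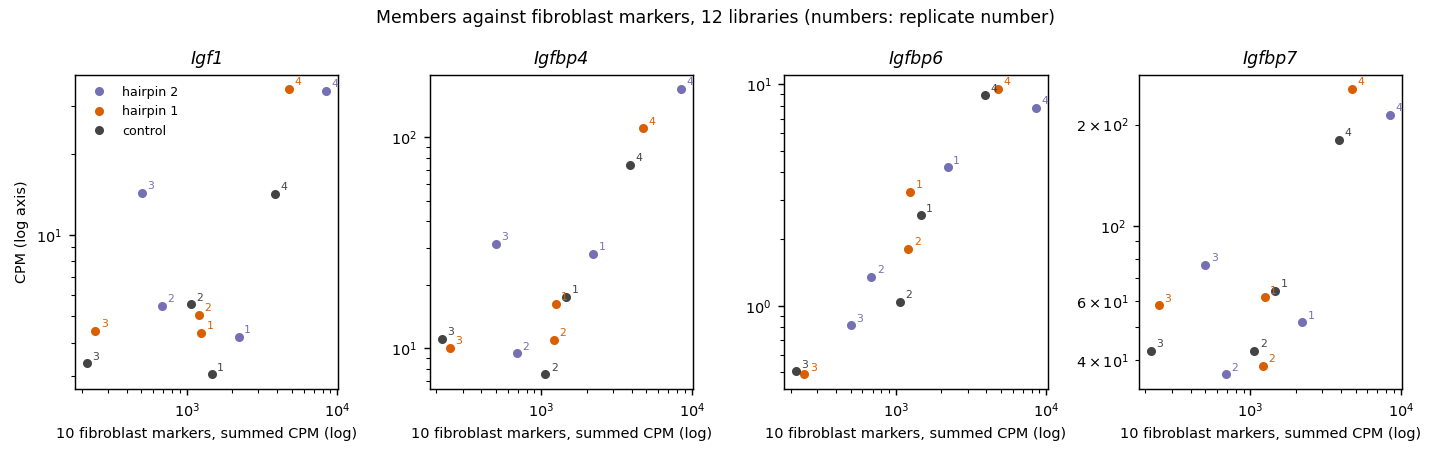
CPM of Igf1, Igfbp4, Igfbp6 and Igfbp7 against the summed CPM of 10 fibroblast markers in the 12 libraries (log axes, digits give the replicate number). Libraries numbered 4 lie at the right, at 3889 to 8496 CPM of fibroblast markers.

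Markers of other cells moved beside some members. In bulk libraries more cells of a type and more RNA per cell cannot be told apart. Of the 10 fibroblast markers, 10 were at 1 CPM or more in the 3 libraries numbered 4 and 6 to 9 in the others, and none was at 0. They summed to 501.4 to 8496 CPM in hairpin 2, 246.6 to 4763 CPM in hairpin 1 and 217.3 to 3889 CPM in control, and 1 of 10 (Dcn) rose with hairpin 2, with a list median of 0.56. Basal and myoepithelial markers summed to 1922 to 3406 CPM in hairpin 2, 1179 to 3384 CPM in hairpin 1 and 867.6 to 3661 CPM in control. Of these, 4 of 8 (Cnn1, Myh11, Acta2 and Trp63) rose with hairpin 2, with a list median of 0.92. Pericyte markers summed to 253.6 to 520.3 CPM in hairpin 2, 229.7 to 439.9 CPM in hairpin 1 and 210.1 to 433.2 CPM in control. With hairpin 2, 2 of 8 (Pdgfrb and Cspg4) rose, with a list median of 0.60, and so did 1 of 7 tested endothelial markers (Erg). Among these markers, Cnn1, Myh11 and Pdgfrb rose with both hairpins together, where 0.84% of all tested genes rose. With hairpin 1 none of them passed in edgeR. The hairpin 1 list medians were 0.125 (fibroblast), 0.465 (basal), 0.142 (pericyte) and -0.184 (endothelial). Of all tested genes, 2.83% rose with hairpin 2 in edgeR, and the median log2 difference over all genes was 0.0044. The part of these markers in the differences of Igfbp2, Igfbp3, Igfbp4 and Igf2r was not tested. Of 10 macrophage markers none passed with either hairpin in edgeR. At an unadjusted p under 0.05 there were 0 with hairpin 2 and 1 with hairpin 1, beside 22.6% and 12.8% of all genes. Of the 10 macrophage markers, 2 or 3 were at 1 CPM or more in libraries numbered 3 and 4. In those numbered 1 and 2, 5 to 10 macrophage markers were. They summed to 179.2 to 293.8 CPM in hairpin 2, 147.1 to 264.1 CPM in hairpin 1 and 165.1 to 371.4 CPM in control, and by replicate number to 250.6 to 371.4 CPM in 1, 246.1 to 315.2 CPM in 2, 157.6 to 293.8 CPM in 3 and 147.1 to 179.2 CPM in 4. C1qb was at 0 in every library numbered 3 or 4, C1qc in 5 of these 6 and Adgre1 in the 3 numbered 3. Their part in the level of Igf1 was not tested.

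Per kilobase of exon, Igfbp5 stood far above the other members in every library. It averaged 2737 ± 666 CPM per kb in hairpin 2, 2509 ± 554 in hairpin 1 and 2517 ± 815 in control (SD, n = 4 each). In control the order then ran Igfbp7 (68.2 CPM per kb), Igf2r (41.7), Igfbp3 (18.1), Irs1 (12.1), Igfbp2 (9.48), Igfbp4 (6.22), Igf1r (3.31), Igfbp6 (2.93) and Igf1 (0.661). Each neighbour pair in this order overlapped over the 4 control libraries except Igfbp5 with Igfbp7 and Igf2r with Igfbp3. With hairpin 2, Igfbp3 (34.1 CPM per kb) came before Igf2r (32.4) and Igfbp2 (21.2) before Irs1 (13.5), within overlapping ranges. With the longest transcript in place of merged exons, Igfbp2 came before Irs1 also in hairpin 1 and in control.

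**Figure D4:**
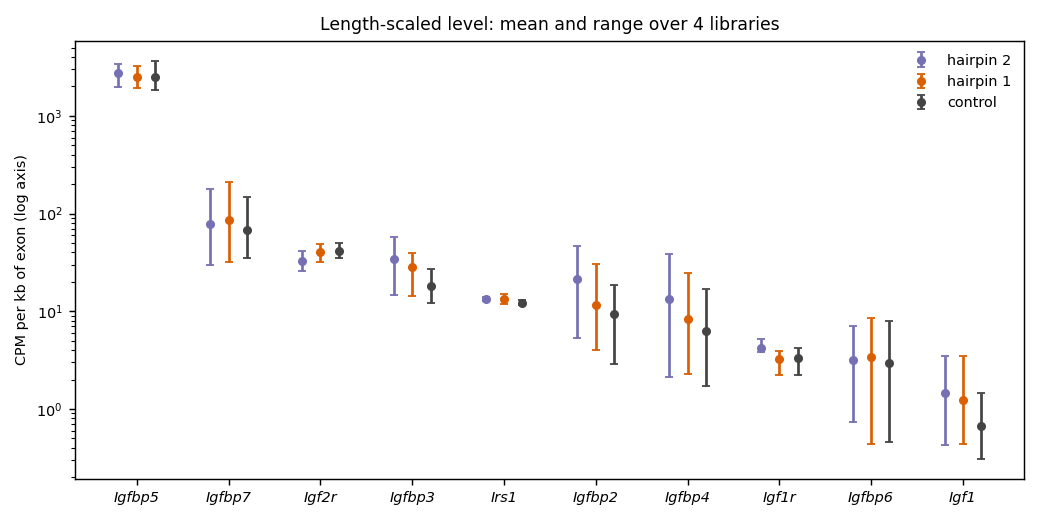
CPM per kb of merged exon (log axis) of the 10 members in hairpin 2, hairpin 1 and control, as means with the range over 4 libraries. Igfbp5, at 1832 CPM per kb or more in every library, stands apart from the other 9.

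The 5 genes whose pattern was most like that of Igfbp5, among 13119 genes over the 12 libraries with each replicate number's mean taken out, were Cirbp (Pearson r 0.986, Spearman rho 0.972), Cnksr3 (r 0.962), Rara (r 0.948), Smarcc2 (r 0.942) and Gm15545 (r 0.935). With the values as measured they were Rara (r 0.977), Rhbdf1 (r 0.975), Ythdc1 (r 0.971), Spacdr (r 0.964) and Ephb3 (r 0.962). Rara, the retinoic acid receptor alpha, was on both lists. These are the highest of many correlations over libraries that share replicate numbers, given as a description.

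Outside the 10 members, the other extracellular genes of the axis moved both ways with hairpin 2. Of 15 listed genes 13 were tested (not Igfbp1 and Igfbpl1), and 2 fell and 1 rose in edgeR, against 2.93% and 2.83% of all genes, with a list median of 0.365 against 0.0044 for all genes. Stc2, an inhibitor of PAPP-A, had 74.1, 39.1, 72.0 and 41.9 CPM in hairpin 2, 103, 58.7, 126 and 67.3 CPM in hairpin 1, and 111, 54.7, 141 and 74.8 CPM in control. Hairpin 2 was below both other groups at each replicate number, and Stc2 fell by 0.72 on the log2 scale against control (SE 0.08, edgeR adjusted p = 0.00195). Igfals, whose product joins Igfbp3 or Igfbp5 and an IGF in a ternary complex, had 25.7, 16.4, 38.7 and 23.5 CPM in hairpin 2, 36.1, 27.0, 57.1 and 33.6 CPM in hairpin 1, and 37.9, 24.7, 75.4 and 34.3 CPM in control. It fell by 0.67 with hairpin 2 (SE 0.09, edgeR adjusted p = 0.00325), again below both other groups at each number.

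Lrp1, a large endocytic receptor reported to bind Igfbp3, rose with hairpin 2 by 0.83 (SE 0.13, edgeR adjusted p = 0.00774). It had 212, 143, 128 and 1014 CPM in hairpin 2, 138, 150, 72.6 and 794 CPM in hairpin 1, and 127, 107, 56.4 and 532 CPM in control, highest in replicate 4 of each group, as fibroblast markers were. Pappa, which encodes PAPP-A, had 4.36, 1.75, 2.56 and 41.2 CPM in hairpin 2, 2.56, 1.12, 1.35 and 20.3 CPM in hairpin 1, and 3.34, 1.86, 0.461 and 14.2 CPM in control, and did not pass with hairpin 2 in edgeR (adjusted p = 0.0994). DESeq2 called Pappa with hairpin 2, as did edgeR on replicates 3 and 4 alone. The calls of Stc2, Igfals and Lrp1 with hairpin 2 held without any 1 of the 12 libraries, and in replicates 3 and 4 alone. In replicates 1 and 2 alone Stc2 passed, and Igfals (edgeR adjusted p = 0.069) and Lrp1 (0.153) did not. Without all libraries numbered 4, Stc2 (adjusted p = 0.0203) and Igfals (0.0269) still passed and Lrp1 did not (0.80, adjusted p = 0.0644). With hairpin 1 none of the 13 passed in edgeR (1 at an unadjusted p under 0.05, beside 12.8% of all genes, 0 in DESeq2). Lrp1 did pass when only the libraries of hairpin 1 and control were fitted, a fit that called 390 genes. Against hairpin 1 Stc2 (-0.64, edgeR adjusted p = 0.00279) and Igfals (-0.57, adjusted p = 0.00819) were lower with hairpin 2. This Igfals call was lost in replicates 1 and 2 alone (edgeR adjusted p = 0.056) and in replicates 3 and 4 alone (0.193), while that of Stc2 was kept in each.

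**Figure D5:**
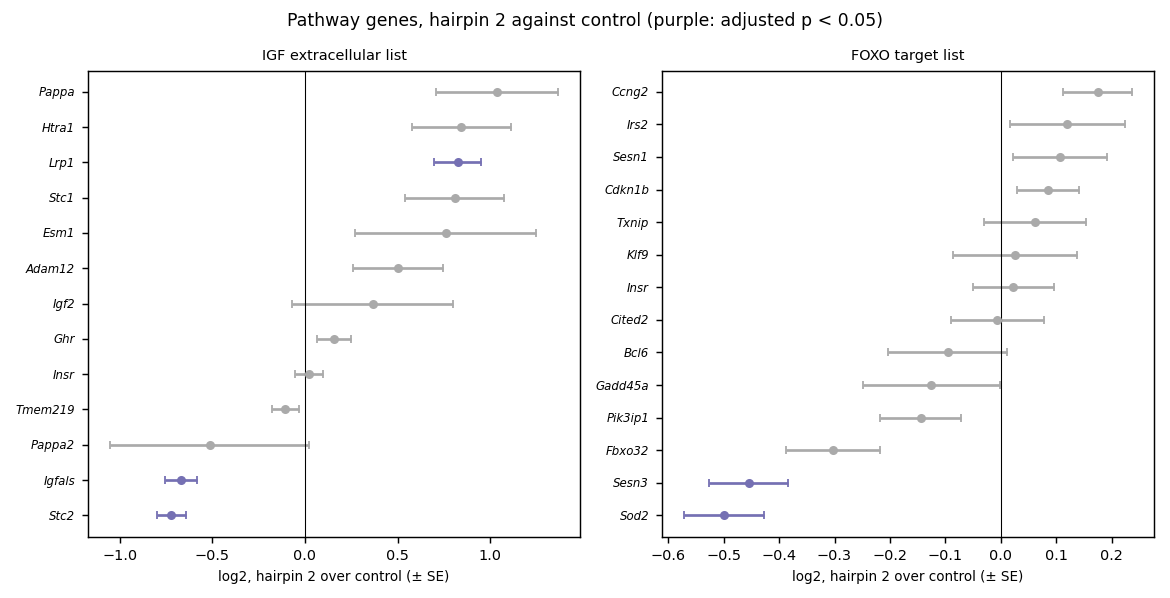
Fitted log2 difference (± SE) of hairpin 2 over control for the tested genes of the extracellular and FOXO target lists, coloured where the adjusted p was under 0.05. Stc2 (-0.72) and Igfals (-0.67) with hairpin 2 lie furthest below 0 among the genes that passed.

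Of 27 genes inside the cell, between the receptor and its PI3K, Akt and Ras arms, 2 rose with hairpin 2 and none fell in edgeR, where 2.83% of all tested genes rose and 2.93% fell, and the list median was 0.0159. They were Sos1, which activates Ras (0.32, SE 0.06, edgeR adjusted p = 0.0230), and Foxo3, a transcription factor held in check by Akt (0.47, SE 0.11, adjusted p = 0.0349). The Sos1 call was lost without hairpin 2 replicates 1 (edgeR adjusted p = 0.0711) or 4 (0.0767) or control replicates 1 (0.0536), 3 (0.0743) or 4 (0.0628). The Foxo3 call was lost without hairpin 2 replicates 1 (0.110) or 3 (0.0644), hairpin 1 replicates 1 (0.0559), 2 (0.0515) or 4 (0.0544), or control replicates 1 (0.118), 2 (0.0525) or 3 (0.124). Without all libraries numbered 4, neither passed (edgeR adjusted p 0.121 for Sos1 and 0.0661 for Foxo3), nor did either with only the libraries of hairpin 2 and control (0.134 and 0.142).

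Of 14 genes known as targets of FOXO factors, none rose and 2 fell with hairpin 2 in edgeR, against 2.83% and 2.93% of all genes, with a list median of 0.0079. Sod2, the mitochondrial superoxide dismutase, had 138, 116, 128 and 118 CPM in hairpin 2, 219, 159, 151 and 171 CPM in hairpin 1, and 216, 162, 153 and 182 CPM in control. Hairpin 2 did not overlap with either other group, and Sod2 fell by 0.50 against control (SE 0.07, edgeR adjusted p = 0.00563). Sesn3, a sestrin that restrains mTORC1, had 53.8, 46.1, 43.4 and 82.6 CPM in hairpin 2, 60.6, 59.8, 55.8 and 112 CPM in hairpin 1, and 67.6, 65.4, 52.9 and 133 CPM in control. It fell by 0.45 with hairpin 2 (SE 0.07, edgeR adjusted p = 0.00782), and both calls held without any 1 library. They were lost when only the libraries of hairpin 2 and control were fitted (edgeR adjusted p 0.0740 for Sesn3 and 0.0578 for Sod2) and in replicates 3 and 4 alone (0.129 and 0.175). In replicates 1 and 2 alone Sod2 passed (0.0465) and Sesn3 did not (0.0946). Without all libraries numbered 4, Sod2 gave -0.45 (adjusted p = 0.0661) and Sesn3 -0.37 (0.0613). In Sod2, 14.0% of 75-base stretches of exon also occur in other genes. With hairpin 1 none of the 27 signalling genes passed in edgeR (7 at an unadjusted p under 0.05, 2 in DESeq2). Nor did any of the 14 targets (5 and 2). Over all genes, 12.8% were at an unadjusted p under 0.05 with hairpin 1, and DESeq2 called 596. When only the libraries of hairpin 1 and control were fitted, 1 signalling gene and 1 target, Gadd45a, passed. That fit called 390 genes, against 124 with all 12 libraries.

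Between the hairpins, 3 of the 14 FOXO targets were lower with hairpin 2 in edgeR, against 1.87% of all genes. Sod2 differed by -0.47 (edgeR adjusted p = 0.00839), and its call held without any 1 library but not without all libraries numbered 4 (0.0760). Sesn3 differed by -0.34 (edgeR adjusted p = 0.0325) and its call was lost without any library of hairpin 1, without hairpin 2 replicates 2 or 4, or without control replicate 1, at 0.0513 to 0.139. Gadd45a, a stress gene whose exons overlap E230016M11Rik over 19.1% of their bases, had 64.6, 33.6, 40.1 and 54.5 CPM in hairpin 2, 83.9, 60.3, 43.6 and 103 CPM in hairpin 1, and 61.95, 48.2, 36.1 and 64.3 CPM in control. Its difference from control was -0.13 with hairpin 2 (SE 0.12, edgeR adjusted p = 0.595) and 0.44 with hairpin 1 (SE 0.12, higher in 4 of 4 pairs, adjusted p = 0.159), the second of which DESeq2 called. Hairpin 2 minus hairpin 1 was -0.56 (edgeR adjusted p = 0.0389), and this passed without control replicates 2 or 3 or hairpin 2 replicate 3 and was lost without any of the other 9 libraries (0.0504 to 0.136) or with only the libraries compared (0.0705). None of the 27 signalling genes passed between the hairpins in edgeR (9 at an unadjusted p under 0.05, 4 in DESeq2). Over all genes, 20.1% were at an unadjusted p under 0.05 in this comparison, and DESeq2 called 1404.

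With both hairpins against control, Lrp1 was higher (0.61, edgeR adjusted p = 0.0281). Stc2 (-0.40, adjusted p = 0.0184), Igfals (-0.38, adjusted p = 0.0298) and Sesn3 (-0.29, adjusted p = 0.0458) were lower. Of all tested genes, 0.84% were higher and 0.946% lower. The value for both hairpins is an average of the 2. With hairpin 1 alone it was 0.39 for Lrp1, -0.08 for Stc2, -0.10 for Igfals and -0.12 for Sesn3, and none passed in edgeR. For both hairpins, none of the 4 passed without all libraries numbered 4 (edgeR adjusted p 0.129 to 0.212). Each was lost without hairpin 1 replicate 4 or control replicates 1 or 4 (0.0505 to 0.147), and Stc2, Igfals and Sesn3 without hairpin 1 replicate 1 (0.0532 to 0.108). Control replicate 3 was needed for Stc2, Igfals and Lrp1 (0.0748 to 0.113 without it), and hairpin 2 replicate 4 for Igfals, Lrp1 and Sesn3 (0.0572 to 0.0829). Lrp1 was also lost without hairpin 2 replicate 1 (0.0555) or hairpin 1 replicate 2 (0.0705), and Igfals without hairpin 1 replicate 3 (0.0685). Sesn3 was also lost without hairpin 2 replicate 2 (0.0596), hairpin 1 replicates 2 (0.110) or 3 (0.0669), or control replicate 2 (0.0892). None of the 27 signalling genes passed here in edgeR (8 at an unadjusted p under 0.05, 2 in DESeq2). Over all genes, 17.2% were at an unadjusted p under 0.05 in this comparison, and DESeq2 called 1150.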

How the data were processed

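Counts per gene are the deposited values: whole, unnormalized read counts, 1 column per library, per the file headers. Build mm10 and the tools Trimmomatic 0.39, FastQC 0.74 and DESeq2 1.34.0 appear in the submitters' processing notes without their roles; aligner, annotation and strand setting: not given in the sources used here. RNA was selected with oligo-dT, per the labels. 1 gene with a blank symbol was kept under its number.

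Counts were tested in R 4.3.3 with edgeR 4.0.16 (filterByExpr, TMM scaling, quasi-likelihood test, Benjamini-Hochberg adjustment over 17025 genes, threshold 0.05), on all 12 libraries with replicate number and group in the model. The filter left out 8836 genes and kept at least 99.97% of counts. CPM uses TMM-scaled library sizes. Standard errors were taken from the F statistics. Same-numbered libraries of different groups correlated in their deviations at r 0.855 to 0.916 over 12 pairs, and each library was closest to its own number; the other 36 pairs gave -0.807 to 0.727. The biological coefficient of variation was 0.141 with the number in the model and 0.648 without. No 2 libraries of a group agreed within sampling noise (chi-square per degree of freedom at least 54.3). Replicates 1 and 2, which had fewer counts, gave 54.3 to 66 within each group, and all other pairs gave 374 to 608. Alternatives were DESeq2 1.42.0, RLE scaling, no filter, other sets of libraries and Igfbp5 left out of scaling; fitting without all libraries numbered 4 was chosen after seeing the data. The test was checked on simulated counts.

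Exon lengths and coordinates are from GENCODE M21 (GRCm38). Named genes are the 10 members, Cldn7, Igf2, Insr, Irs2, up to 4 called genes of each pathway list, and the 5 genes most like Igfbp5 (mean of at least 2 CPM, on log2 of CPM plus 0.1); Pappa was added after its values were seen. Some genes of the signalling list are not reported here and were left out of its counts. The members, gene lists and tests were chosen with earlier results of these data known.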

Additional observations from a re-analysis of the deposited data

Results flagged for a closer look

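In 8 of 30 groups (10 members in 3 groups of 4 libraries) 1 library stood apart from the other 3 on the CPM scale, with a gap to the nearest above 0.829 of the group's range, Dixon's critical value for 4 samples. For normally distributed values chance gives such a gap in about 1 group in 20. CPM values need not be so distributed, and the members share the same libraries, so the 2 rates cannot be compared directly. In 7 of these the library was replicate 4. Igfbp4 stood at 169 CPM in replicate 4 of hairpin 2 (9.46 to 31.2 CPM in the others), at 110 CPM in that of hairpin 1 (10.1 to 16.2 CPM) and at 73.7 CPM in that of control (7.53 to 17.6 CPM). Igfbp7 was at 255 CPM in replicate 4 of hairpin 1 (38.4 to 61.4 CPM) and 180 CPM in that of control (42.6 to 64.2 CPM). Igf1r was at 86.7 CPM in replicate 4 of hairpin 2 (63.6 to 67.0 CPM). Igf1 was at 34.8 CPM in replicate 4 of hairpin 1 (4.34 to 5.07 CPM), with a gap of 0.976 of the range on the CPM scale, and it alone also stood apart on the log2 scale (0.925). The eighth was Igfbp2 in replicate 2 of hairpin 1, at 56.0 CPM (7.46 to 13.6 CPM). Fibroblast markers were highest in the libraries numbered 4. So were pericyte markers (433.2 to 520.3 CPM) and adipocyte markers (66.91 to 138 CPM). The part of these markers in the values above was not tested.

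Igfbp2 responded differently to the 2 hairpins: hairpin 2 minus hairpin 1 was 0.978 on the log2 scale (edgeR adjusted p = 0.0305, higher in 4 of 4 pairs). No other member passed the test of that difference in edgeR.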

How the results depend on the processing

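The counts of calls depended on the model and the libraries used more than the log2 differences did. No replicate block (replicate number left out of the model) left 1 gene called in each comparison, against 304 for both hairpins, 124 for hairpin 1, 981 for hairpin 2 and 585 between hairpins. It left 0 members in each and turned Igfbp5 with hairpin 1 to -0.0047 and Igfbp6 between hairpins to -0.090. DESeq2 with the replicate number called 1150, 596, 1850 and 1404 genes in the same order, and 3, 1, 6 and 4 members. Fitting only the libraries compared called 390 genes and 1 member (Igfbp3) for hairpin 1, and 97 genes and 1 member (Igfbp2) for hairpin 2. RLE scaling and leaving Igfbp5 out of scaling changed no member's call. Replicates 1 and 2 alone called 25, 9, 82 and 84 genes, with 1 member for hairpin 2 and 0 between hairpins. Replicates 3 and 4 alone called 5, 1, 327 and 42 genes, with 0 members for both hairpins and between hairpins. Without replicate 4 of any group, 30, 6, 185 and 158 genes were called, with 0 members for both hairpins, 1 (Igfbp2) for hairpin 2 and 0 between hairpins.

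Leaving out 1 library at a time gave 39 to 554 genes and 0 to 2 members for both hairpins, 2 to 344 genes for hairpin 1, 342 to 1076 genes and 1 to 5 members for hairpin 2, and 165 to 672 genes and 0 to 2 members between hairpins. The cause was not tested.

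Values that turned sign were near 0 or uncalled. For hairpin 1, Igf1r gave 0.00096 with no filter, 0.0048 with only the libraries compared, 0.018 in replicates 1 and 2 and 0.030 without replicate 4. In replicates 3 and 4, Igfbp5 with hairpin 1 was -0.054 and Igfbp2 -0.33. In replicates 1 and 2, Igfbp7 was -0.19 for both hairpins, -0.10 for hairpin 1 and -0.28 for hairpin 2. Between hairpins, Igfbp7 was 0.081 in replicates 3 and 4 and 0.044 without replicate 4, Irs1 -0.046 in replicates 1 and 2 and -0.060 without replicate 4, and Igfbp6 -0.011 in replicates 1 and 2. For both hairpins, Igf2 was 0.33 in replicates 1 and 2 and 0.19 without replicate 4, and Irs2 -0.021 in replicates 3 and 4. Without single libraries, or without replicate 4 of every group, the ranges were -0.38 to 0.19 (Igf2) and -0.027 to 0.10 (Insr) for both hairpins. For hairpin 1 they were -0.043 to 0.43 (Igfbp2), -0.013 to 0.10 (Igfbp5), -0.074 to 0.064 (Igf1r) and -0.14 to 0.014 (Igf2r), and for hairpin 2 -0.056 to 0.26 (Igfbp7). Between hairpins they were -0.056 to 0.26 (Igfbp6), -0.25 to 0.070 (Igfbp7) and -0.060 to 0.065 (Irs1).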
